A study of Gallus gallus with 20 samples.

Results

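Myostatin, follistatin, the type II activin receptors and SMAD3 were followed in the pectoralis major (breast muscle) and the liver of male broiler chickens. The genes were chosen by symbol with earlier results of these data known, and the opposite direction of the follistatin diet changes in the 2 tissues was part of that choice, so diet differences of these 5 genes are described here without a test. All 5 were found among the 17108 genes of the galGal4 assembly in the deposited files. FST, ACVR2A, ACVR2B and SMAD3 stood there as such, while MSTN was listed under its older symbol GDF8.

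The birds were of the Ross 708 breed, all male, and sampled at post-hatch day 35. One set of 5 birds was fed a control diet with L-methionine, and another set of 5 a diet deficient in L-methionine, from week 3 to week 5 of age. Each of the 4 groups, breast control, breast deficient, liver control and liver deficient, held 5 libraries of total RNA made with the TruSeq kit. With 5 birds per diet and 5 libraries per diet in each tissue, the breast and liver libraries of a diet come from the same set of birds. The labels do not say which belong together.

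Myostatin is a secreted ligand of the transforming growth factor beta superfamily, made chiefly by skeletal muscle, that restrains muscle growth. It and the activins bind a type II receptor, ACVR2B or ACVR2A, which recruits a type I receptor such as ACVR1B or TGFBR1, and the receptor complex phosphorylates SMAD2 and SMAD3, which enter the nucleus with SMAD4. Follistatin binds activins and myostatin outside the cell and keeps them from the receptors, and in mammals the liver is a major source of the circulating protein.

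Reads were not tallied in any file used here, and their number is therefore unknown. The isoform files gave the mean read depth over each transcript, and coverage times transcript length came to between 1.40 and 2.75 assigned gigabases per library. Liver controls 1 and 4 and liver deficient 1 stood apart. Mitochondrial genes held 63.1% of the FPKM sum in liver control 4 and 36.1% in liver deficient 1, against 14.1% to 22.9% in the other 18 libraries, and in both a single mitochondrial RNA, of 71 and 76 nt, led. In liver control 1 myocyte markers stood high, for a reason that was not tested. The summed level of 8 myocyte markers was 528 scaled FPKM in it, between 0.551 and 2.73 in the other 4 liver controls, between 0.711 and 2.04 in the deficient livers and between 27557 and 82211 in breast, where 7 of them had no failed estimate. The 16 hepatocyte markers summed to between 21506 and 55948 scaled FPKM in liver and between 708 and 3221 in breast. FPKM counts fragments per length of transcript and per size of the library. Here it was scaled within a tissue to equalize the libraries' median ratio to the genes' geometric means. Changes are deficient minus control on the log2(scaled FPKM + 1) scale, which understates changes, most of all those of genes near or below 1.

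In control breast muscle, myostatin was the most abundant of the 5 genes per length and ACVR2B the least. Myostatin and ACVR2B stood there at 31.1 ± 10.05 and 0.244 ± 0.123 scaled FPKM, with ACVR2A at 7.39 ± 0.846, SMAD3 at 6.77 ± 0.630 and FST at 5.24 ± 1.70 (SD, n = 5 each). In control liver the order differed, with FST first at 35.4 ± 27.0, ACVR2A at 8.22 ± 1.14, SMAD3 at 5.38 ± 1.19, ACVR2B at 0.231 ± 0.306 and myostatin at 0.0627 ± 0.0693 (SD, n = 5 each). Of the 5 members, 4 passed the filter of a mean of at least 1 scaled FPKM in breast muscle (ACVR2B did not) and 3 in liver (FST, ACVR2A and SMAD3).

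**Figure D1:**
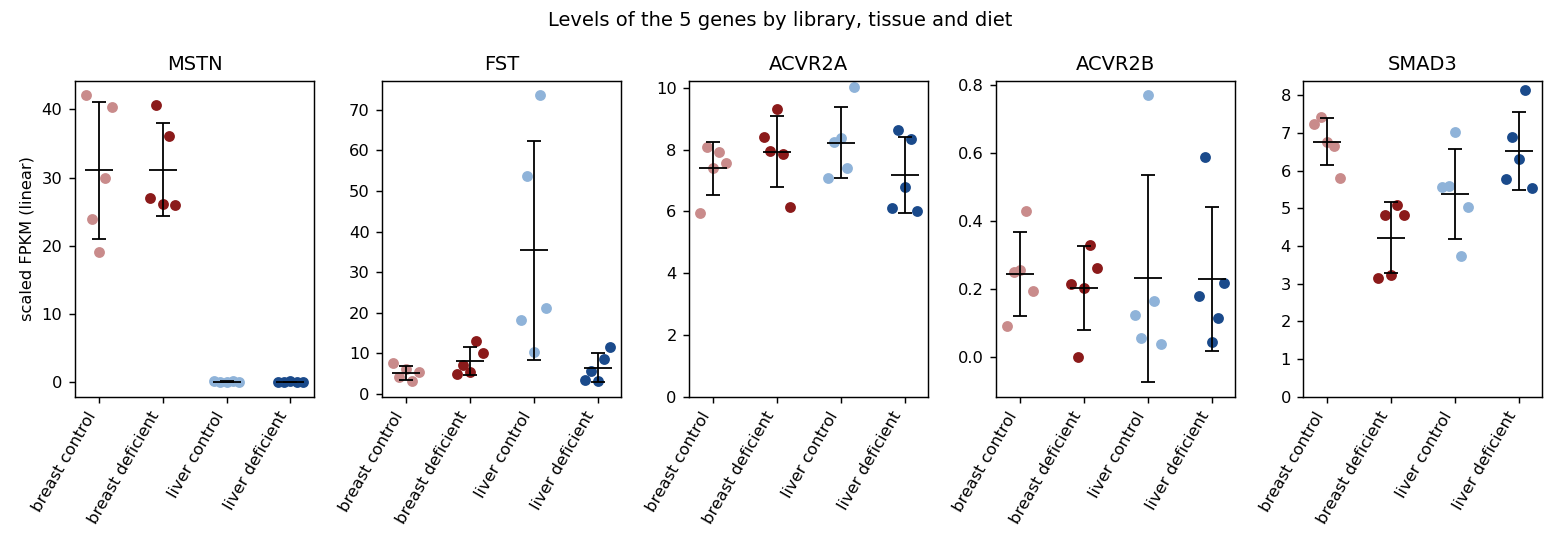
Scaled FPKM (linear axis, its own range in each panel) of the 5 genes in every library, with the 4 groups of tissue and diet along the horizontal axis. Points are libraries and black bars are the mean ± SD of 5 libraries. Control livers spread from 10.4 to 73.6 for FST, and the deficient breast libraries lay below all breast controls for SMAD3.

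The ligand, myostatin (MSTN, listed as GDF8, ENSGALG00000023961, chromosome 7, 195700 to 201192), was at the same mean level in breast muscle on both diets. The control libraries read 42.1, 23.9, 19.1, 30.0 and 40.4 scaled FPKM and the deficient libraries 27.0, 40.7, 26.1, 36.2 and 26.0. The groups overlapped throughout, and the control group held both the highest and the lowest library. The means were 31.1 ± 10.05 and 31.2 ± 6.82 (SD, n = 5 each), a log2 change of 0.04 ± 0.22 (SE), so that the mean difference was a small part of the spread within a group. The sign was not stable. It was negative without scaling (-0.28), with quantile normalization (-0.06) and without breast control 2 (-0.04), breast control 3 (-0.12), breast deficient 2 (-0.06) or breast deficient 4 (-0.02).

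In liver, myostatin was at the floor of detection. It was listed at 0 in 2 of 5 control and 4 of 5 deficient libraries. The highest value, 0.159 scaled FPKM, came from liver control 1, the library with the high myocyte marker level. The mean read depth over its transcript of 1128 nt did not exceed 0.351 in any liver library, against 37.5 to 95.5 in breast.

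Follistatin (FST, ENSGALG00000014908, chromosome Z, 15930691 to 15938408) had the widest range within a group among the members past the filter. Its listed FPKM lay outside the confidence bounds given beside it in 13 of 20 libraries, for a reason that is not known. The control livers read 18.2, 53.7, 10.4, 73.6 and 21.3 scaled FPKM, and the deficient livers 3.35, 5.70, 3.19, 8.67 and 11.6. Controls 2 and 4 were far above the rest, and the groups overlapped by 1 pair of libraries, control 3 lying below deficient 5. In 24 of 25 pairings of a deficient with a control liver, the deficient one was lower.

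The group means for FST in liver were 35.4 ± 27.0 and 6.50 ± 3.61 (SD, n = 5 each), the control mean being 5.45 times the deficient one. The log2 change was -2.08 ± 0.51 (SE), or 4.22-fold lower with the 1 added to each value. Of all 10185 genes tested in liver 0.815% had a log2 change at or below -1, and nothing is read from this for a gene chosen on the same contrast. The log2 change of FST lay between -2.41 and -1.74 when any 1 liver library was left out. Without liver control 4 and liver deficient 1, the libraries with the large mitochondrial shares, it was -1.57, and without liver control 1 as well -1.65. Liver control 1 was not among the high libraries, and the change without it was -2.22.

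In breast muscle FST lay the other way, with a smaller difference and wide overlap. The control libraries read 7.55, 4.09, 6.04, 3.17 and 5.35 scaled FPKM and the deficient ones 4.96, 7.07, 5.36, 13.0 and 10.02. Deficient 4 and deficient 5 were above all controls, while the other 3 deficient libraries lay within the control range. The means were 5.24 ± 1.70 and 8.08 ± 3.40 (SD, n = 5 each), a log2 change of 0.51 ± 0.26 (SE), which was 0.34 without deficient 4. Without scaling it was 0.22, when the median of all genes stood at -0.25. None of the 4 genes past the filter in breast lay at or below -1 there, as 2.64% of all genes did. The liver change minus the breast change was -2.62 ± 0.61 (SE) in the fit over all 20 libraries.

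**Figure D2:**
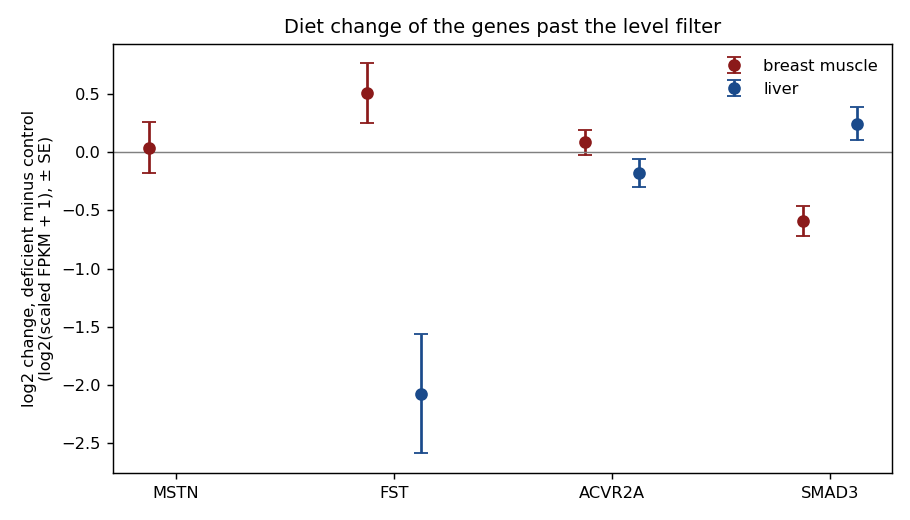
Log2 change from control to deficient diet (vertical axis, log2(scaled FPKM + 1), bars ± SE from 5 against 5 libraries) for the members past the level filter, in breast muscle and liver. FST lay at 0.51 in breast muscle and -2.08 in liver, and SMAD3 at -0.59 and 0.25.

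The ratio of follistatin to its ligand within a breast library does not depend on scaling. FST over MSTN, both in FPKM, was 0.180, 0.171, 0.316, 0.106 and 0.132 in the controls and 0.184, 0.174, 0.206, 0.359 and 0.386 in the deficient libraries. Again deficient 4 and deficient 5 alone lay above the control range, and the means were 0.181 ± 0.0813 and 0.262 ± 0.102 (SD, n = 5 each).

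Of the type II receptors, ACVR2A (ENSGALG00000012444, chromosome 7, 34001588 to 34054530) was at a similar level in all 4 groups. Breast control libraries lay between 5.95 and 8.09 scaled FPKM with a median of 7.57, and breast deficient libraries between 6.14 and 9.31 with a median of 7.96. Control livers lay between 7.08 and 10.02 (median 8.23) and deficient livers between 6.02 and 8.64 (median 6.79). All 4 ranges overlapped. The log2 changes were 0.09 ± 0.11 (SE) in breast and -0.18 ± 0.12 (SE) in liver, and without scaling the breast value was -0.21, near the shift of the median gene.

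ACVR2B (ENSGALG00000006158, chromosome 2, 5721529 to 5739855), the receptor that myostatin binds most tightly in mammals, was barely read. Its libraries lay between 0 and 0.429 scaled FPKM in breast and between 0.0388 and 0.771 in liver, with a mean depth of at most 2.71 reads over the transcript. Control means were 0.244 ± 0.123 in breast and 0.231 ± 0.306 in liver, and deficient means 0.202 ± 0.123 and 0.229 ± 0.211 (SD, n = 5 each). With so few reads over its transcript ACVR2B stayed below the filter, and no diet difference is read from its values.

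SMAD3 (ENSGALG00000007870, chromosome 10, 18282943 to 18345447), the signal carrier of the pathway, was the member whose diet groups did not overlap, and only in breast muscle. The breast controls read 7.24, 7.41, 6.75, 6.66 and 5.80 scaled FPKM, and the deficient libraries 3.15, 4.82, 3.24, 5.09 and 4.82. The lowest control lay above the highest deficient library, as the deficient group did below the controls for 9.46% of all genes tested in breast (8.9% lay wholly above). The means were 6.77 ± 0.630 and 4.22 ± 0.947 (SD, n = 5 each), the control mean being 1.60 times the deficient one. The log2 change was -0.59 ± 0.13 (SE), or 1.51-fold lower with the 1 added to each value. That change lay between -0.65 and -0.51 when any 1 breast library was left out.

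In liver SMAD3 lay slightly the other way. The controls read 5.57, 5.59, 7.02, 3.72 and 5.02 scaled FPKM and the deficient livers 5.78, 6.89, 6.31, 8.13 and 5.53. Deficient 4 was above all controls and the rest overlapped. The means were 5.38 ± 1.19 and 6.53 ± 1.04 (SD, n = 5 each), a log2 change of 0.25 ± 0.14 (SE). None of the 3 members past the filter in liver had diet groups that did not overlap, against 0.923% (deficient lower) and 0.943% (deficient higher) of all genes tested there.

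Markers of several cell types also differed between the diets in breast muscle, where limma called 28.1% of all genes (14.2% higher and 13.9% lower). Of 12 macrophage markers 11 fell in breast, and their summed level was between 1707 and 2080 scaled FPKM in controls and between 950 and 1100 in deficient libraries. Of 10 fibroblast markers 5 fell (sums of 2110 to 2712 against 1339 to 2159), of 7 myocyte markers 5 rose (27557 to 46016 against 50240 to 82211) and of 8 satellite cell markers 2 fell (111 to 136 against 87.2 to 140). Of 7 adipocyte and 7 endothelial markers tested, 1 and 0 fell and none rose, and of 4 hepatocyte markers tested in breast 3 fell (sums over 16 of 1908 to 3221 against 708 to 2613), the calls being those of limma at an adjusted p under 0.05 over all genes. Apart from hepatocyte markers, of which 2 in controls and 1 in deficient libraries were at 0 throughout, no marker of these lists was at 0 in all breast libraries of a diet. In this bulk RNA, fewer cells of a type and less RNA per cell cannot be told apart, and the part of these cell types in the SMAD3 values was not tested. In liver 0 markers of these lists were called, but 0 of all 10185 genes tested there were, so nothing is read from this for the cell types.

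The difference between the tissues, averaged over the diets, does not use the diet contrasts and was tested for the 3 members past the filter in both tissues. It was fitted over all 20 libraries scaled together and treated as independent, although breast and liver share birds. Of all 11211 genes tested, 79.5% differed (40.5% higher and 39% lower in liver). MSTN was lower in liver, at 0.0636 ± 0.0706 and 0.0217 ± 0.0486 jointly scaled FPKM against 30.8 ± 9.92 and 31.4 ± 7.13 in breast (SD, n = 5 each, control first). It passed the level filter through breast alone, so it had to differ, and its difference is a description with no test. On the log2 scale it was -4.90 ± 0.12 (SE), and -7.83 with a pseudocount of 0.1, so its size is set by the pseudocount.

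Averaged over the diets FST was higher in liver, with a log2 difference of 0.97 ± 0.31 (SE, limma adjusted p = 0.00689). The control livers that set this difference also set the diet change for which FST was chosen, so the p-value is not separate support. The joint group means placed liver control first at 35.9 ± 27.4, then breast deficient at 8.13 ± 3.45, liver deficient at 6.49 ± 3.62 and breast control at 5.18 ± 1.67 (SD, n = 5 each). The last 3 overlapped one another, so the order among them did not exceed the spread, and within the deficient diet the liver mean was the lower one.

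ACVR2A and SMAD3 did not pass the test between tissues averaged over the diets. ACVR2A differed by 0.01 (95% interval -0.16 to 0.19, limma adjusted p = 0.898) and SMAD3 by 0.13 (-0.08 to 0.33, limma adjusted p = 0.242). For SMAD3 the joint means ran from breast control (6.71 ± 0.642) through liver deficient (6.52 ± 1.01) and liver control (5.45 ± 1.20) to breast deficient (4.25 ± 0.975), and neighbours in that order overlapped. For ACVR2A they ran from liver control (8.32 ± 1.08) through breast deficient (7.97 ± 1.16) and breast control (7.32 ± 0.861) to liver deficient (7.17 ± 1.23), again with overlap between neighbours (SD, n = 5 each). On the deficient diet, all liver libraries (5.56 to 8.06) lay above all breast libraries (3.13 to 5.15) for SMAD3. These breast libraries are the ones described above as below all breast controls. The share of all genes so separated between the tissues was not counted, so this is a description. On the control diet the breast mean of SMAD3 was the higher one, with overlap. The averaged value therefore does not mean that SMAD3 was alike in the tissues on each diet, and tissues within a diet were not tested.

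Other genes of the pathway were sorted into 7 lists by role. Of 119 listed genes 96 were found, and 63 were tested in breast muscle. Of these 6 rose (9.52%) and 11 fell (17.5%), where 14.2% and 13.9% of all 10173 genes tested did, and the median log2 change was -0.10 against 0.02 over all genes. The 11 falls became 6 without breast control 2 or 4, 7 without breast control 5 or breast deficient 4, 7 with no filter or a filter at 5, and 25 without scaling. The 6 rises became 12 without breast deficient 5 and 2 without scaling. Genes outside the rule for named genes are given for their role in myostatin and activin signalling or to complete a count, and were picked after their values were seen.

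Among the ligands 1 of 5 tested rose and 1 fell (20% each, against 14.2% and 13.9% of all genes). TGFB3, a ligand made by many tissues, fell in scaled FPKM from 219 ± 64.5 to 131 ± 43.8 (SD, 5 libraries each, log2 change -0.76, limma adjusted p = 0.0463), a call lost without any of 7 libraries, breast controls 2, 3, 4 and 5 and breast deficient 1, 3 and 4 (adjusted p up to 0.110). AMH, the hormone named for regression of the Müllerian duct, rose from 4.80 ± 0.535 to 6.89 ± 0.743 (log2 change 0.45, limma adjusted p = 0.00711), but was not called when FPKM were left unscaled (adjusted p = 0.261). INHBA, which encodes the subunit of activin A, was below the filter in breast at 0.703 ± 0.238 and 0.534 ± 0.257 scaled FPKM. In liver, where FST was also high on the control diet, INHBA stood at 3.44 ± 1.60 and 4.26 ± 1.96 (SD, n = 5 each, log2 change 0.22 ± 0.32, limma adjusted p = 0.902).

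Antagonists and binding proteins held 4 falls among 12 tested (33.3%, against 13.9% of all genes) and no rise. All 12 changes were below 0, with a median of -0.32. With quantile normalization 11 of the 12 were below 0, and with upper-quartile scaling all 12 were. Without scaling all 12 were too, but so were all 9 tested receptors and co-receptors, with the median of all genes at -0.25. That setting therefore says nothing about this list. The share of all genes below 0 was not counted, so the common direction of the 12 is a description with no test. BMPER, which binds bone morphogenetic proteins, stood at 3.93 ± 1.12 scaled FPKM in controls and fell to 1.77 ± 0.278 (SD, 5 libraries each, log2 change -0.81, limma adjusted p = 0.00386). LTBP1, which anchors latent transforming growth factor beta in the matrix, fell from 8.66 ± 1.59 to 4.83 ± 1.39 (-0.75, limma adjusted p = 0.0109). The proteoglycan decorin (DCN, -0.44) and the antagonist chordin (CHRD, -0.36) also fell (limma adjusted p = 0.0499 and 0.0455), calls lost without any of 8 libraries each, breast control 2 among them (adjusted p = 0.119 and 0.0555). The follistatin-like FSTL3, which also binds myostatin, was at 3.45 ± 1.45 and 3.10 ± 1.54, and WFIKKN2, another myostatin antagonist, at 2.62 ± 1.05 and 2.34 ± 1.73 (limma adjusted p = 0.712 and 0.688). Of the 10 fibroblast markers given above, which share no gene with this list, 5 fell and none rose. Of the 12 macrophage markers 11 fell, and of the 7 myocyte markers 5 rose. The part of these cell types in the changes of this list was not tested.

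Of 4 processing proteases none was called, where 28.1% of all genes were. Of the 9 tested receptors and co-receptors 1 fell (11.1%, against 13.9% of all genes), TGFBR2, the type II receptor of transforming growth factor beta. Its level was 18.2 ± 3.31 in controls and 10.01 ± 1.64 in deficient libraries (scaled FPKM, SD, 5 libraries each, log2 change -0.80, limma adjusted p = 0.00315). The type I receptor ACVR1B, which pairs with the type II activin receptors, was at 8.51 ± 0.609 and 9.20 ± 1.76 (log2 change 0.09 ± 0.12, limma adjusted p = 0.613).

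SMAD1 and SMAD5, the tested SMAD proteins that carry the bone morphogenetic protein signal, lay at 0.72 and 0.15 in breast. SMAD1 rose, its scaled FPKM being 12.8 ± 1.95 on the control and 21.8 ± 3.77 on the deficient diet (SD, 5 libraries each, limma adjusted p = 0.00506), and SMAD5 did not pass the test (limma adjusted p = 0.372). SMAD2 was listed at 0 in all 20 libraries, a gene that most cells use, so the partner of SMAD3 could not be followed.

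Among 21 SMAD regulators 4 rose (19.0%) and 3 fell (14.3%), near the shares of all genes (14.2% and 13.9%). USP15, a deubiquitinase of the pathway, rose in scaled FPKM from 12.2 ± 1.87 to 22.4 ± 3.16 (SD, 5 libraries each, log2 change 0.83, limma adjusted p = 0.00183). The ubiquitin ligase WWP1 (0.53) and the phosphatase gene CTDSPL, listed as NFI1 (0.39), rose as well (limma adjusted p = 0.0113 and 0.0118), both calls being lost without scaling (adjusted p = 0.150 and 0.634). The ubiquitin ligase SMURF1 fell from 2.95 ± 0.259 to 1.81 ± 0.410 (-0.50, limma adjusted p = 0.00732). The phosphatase PPM1A (0.48), TGIF1 (-0.49) and PMEPA1 (-0.55) completed the 7 (limma adjusted p between 0.0140 and 0.0235). The PPM1A call was lost without scaling and under quantile normalization (adjusted p = 0.185 and 0.0710), and that of PMEPA1 without breast control 2 or 4 (adjusted p = 0.0615 and 0.0554).

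Where 13.9% of all genes fell, 2 of 10 SMAD target genes did (20%). They were CTGF, a matrix-associated growth factor, with 34.9 ± 7.01 scaled FPKM in controls against 19.2 ± 7.07 (SD, 5 libraries each, log2 change -0.86, limma adjusted p = 0.0151), and the matrix protein TGFBI (-0.60, limma adjusted p = 0.0376). The TGFBI call was lost without any of 6 libraries, breast controls 2, 3, 4 and 5 and breast deficient 3 and 4 (adjusted p up to 0.0854).

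**Figure D3:**
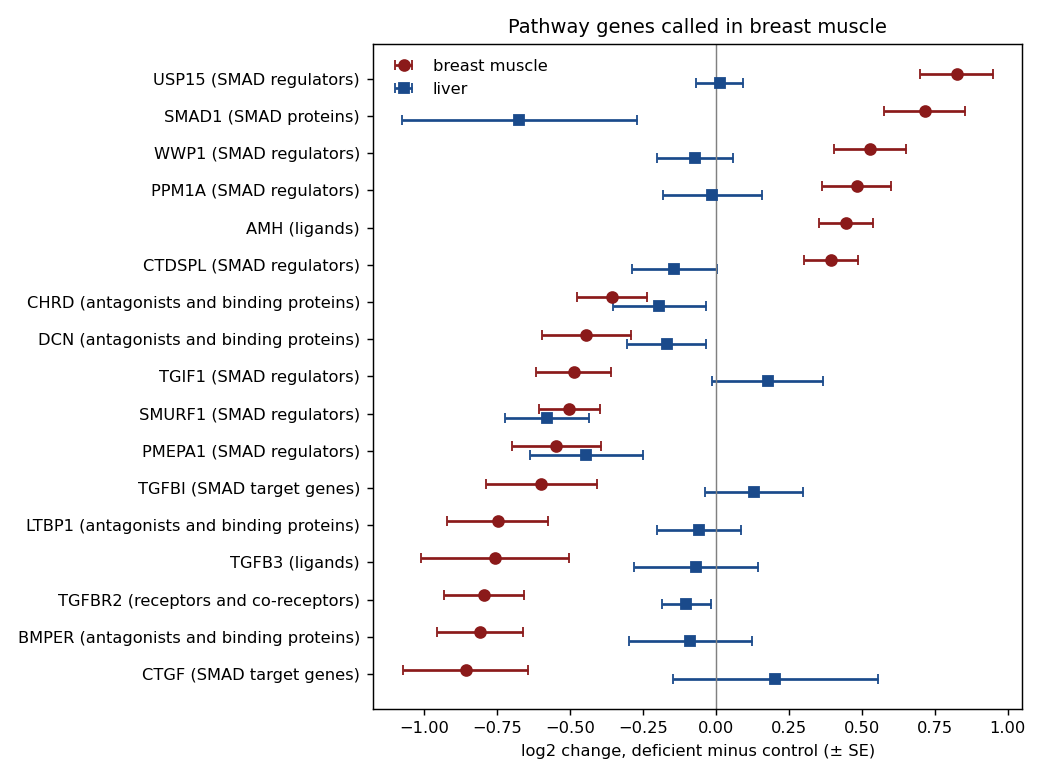
Log2 change from control to deficient diet (horizontal axis, ± SE, 5 against 5 libraries) of the 17 pathway genes that limma called in breast muscle, with the liver value of the same gene where it was tested. In breast 6 genes lay above 0 and 11 below, and none of them was called in liver.

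The liver change minus the breast change, tested over 20 libraries treated as independent, was called for 10.1% of 9138 genes (4.68% higher and 5.44% lower). Among 53 pathway genes it was called for 1 higher, TGFBR2, and 5 lower, SMAD1, CTDSPL, USP15, WWP1 and ZFYVE9.

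In liver none of 62 tested pathway genes was called, and 0 of all 10185 genes tested was (849 had an unadjusted limma p under 0.05). Counts over all genes under other settings and without single libraries lay between 0 and 11. The smallest p-values among pathway genes were those of SMURF1 at -0.58 ± 0.14 (limma adjusted p = 0.300) and ZFYVE9, which anchors SMAD proteins at endosomes, at -0.27 ± 0.09 (limma adjusted p = 0.451). Next came the ubiquitin ligase NEDD4L at -0.21, and then the type I receptor BMPR1A at -0.36 ± 0.15 (SE, limma adjusted p = 0.565).

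The genes most like each member were taken by Pearson correlation of log2 values over the 10 libraries of a tissue. Libraries of one diet share that diet, and with 9139 genes compared in liver and 9240 in breast the highest values are high by selection, so these are descriptions. For FST in liver they were SLC38A2, a transporter of neutral amino acids (r = 0.982, and 0.960 for deviations from the diet means), COQ10B (0.980 and 0.949), a protein of coenzyme Q handling, and NEDD9 (0.972 and 0.960), an adhesion scaffold. SLC38A2 read 107, 190, 58.9, 241 and 115 scaled FPKM in the controls and 19.1, 41.0, 26.0, 41.5 and 52.4 in the deficient livers. Controls 2 and 4 were the highest libraries for SLC38A2, COQ10B and NEDD9, as for FST.

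**Figure D4:**
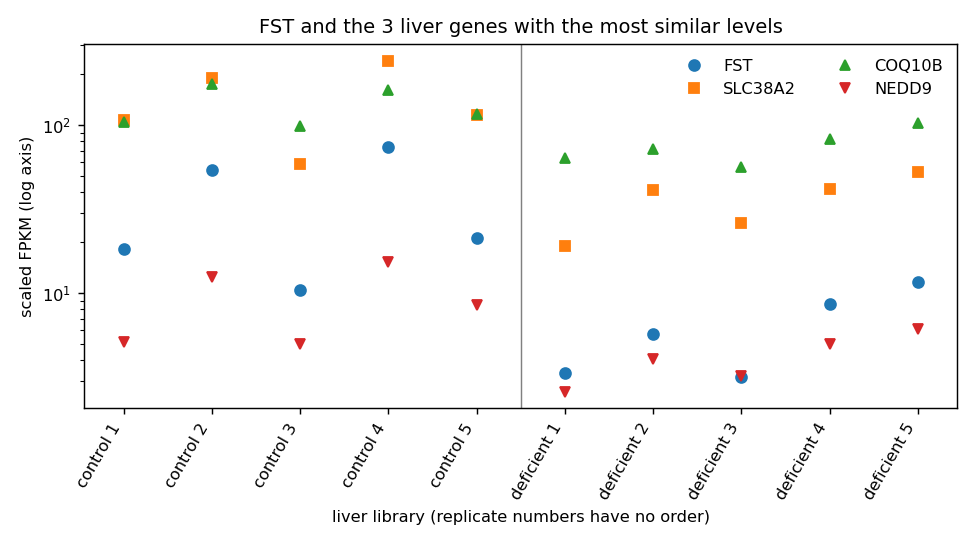
Scaled FPKM (log axis) of FST, SLC38A2, COQ10B and NEDD9 in the 10 liver libraries, 5 controls left and 5 deficient right of the line. All 4 genes were highest in liver controls 2 and 4, where FST read 53.7 and 73.6.

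In breast the closest genes were PDS5A (r = 0.928), SEC63 (0.915) and FAM150B (0.897) for FST, and PSAT1, an enzyme of serine synthesis (0.844), EPHX1 (0.843) and PPP4R2 (0.843) for MSTN. For ACVR2A they were AKIRIN2 (0.859), ETHE1 (0.852) and POLD2 (0.848), and for SMAD3 C14ORF135 (0.966), SULT1B1 (0.960) and SFRP2 (0.959). In liver ACVR2A came closest to CD81 (0.953), ERAP1 (0.911) and ATXN3 (0.906), and SMAD3 to GATAD2A (0.930), ST14 (0.925) and SMARCD2 (0.905). Among the members themselves, FST and SMAD3 correlated at -0.67 over the 10 livers and at -0.51 as deviations from the diet means. In breast the same pair stood at -0.14 and 0.65. FST with ACVR2A stood at -0.44 and -0.70 in breast and at 0.31 and -0.08 in liver. ACVR2A with SMAD3 stood at -0.50 and -0.53 in breast and at 0.15 and 0.49 in liver. Pairs with MSTN, in breast alone, lay between -0.26 and 0.30. No pair was tested.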

How the data were processed

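The members and the gene lists were chosen with earlier results of these data known. The authors deposited FPKM per gene and per isoform for each library, in the tracking format of Cufflinks per the file headers. Transcript length and coverage, the mean read depth and so a signal, were deposited with the isoform values. Per the submitters' processing notes Cufflinks 2.1.1, Cuffdiff 2.1.1, Bowtie 1.0.0 and TopHat2 2.0.9 were named together with galGal4, with roles not given in the sources used here. No count model was fitted. The 19 gene values marked as failed, all listed at 0, were left out of the tissue concerned.

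Each library was divided by its median ratio to the genes' geometric means, taken over genes never at 0 in the fit, then filtered at a mean of 1, and tested on the log2(scaled FPKM + 1) scale in limma 3.58.1 under R 4.3.3, with a mean-variance trend. Two-sided p-values were adjusted by Benjamini-Hochberg over every gene tested and called under 0.05. Fits were made per tissue with diet as the term, and over 20 libraries for the tissue difference and for the liver minus the breast diet change. The procedure was tested on simulated data. P-values set a difference against the spread between libraries. The fits over 20 libraries treat breast and liver as independent, although each diet had 5 birds and the tissues share them. The p-values of these fits therefore take no account of which libraries share a bird.

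Listed starts count from 0, as in 2304 genes with 1 transcript the length equals end minus start, so 1 was added. Named genes are the 5 members, up to 4 called genes with the smallest p per list and comparison, and the 3 genes per member and tissue with the highest correlation among those with a symbol and a transcript of at least 200 nt. Symbols were matched directly or by a synonym in the RefSeq gene table (GRCg7b). Alternatives were other scalings, pseudocount, filters, variance model, a replicate block, summed isoform values and the removal of libraries. The removal of liver controls 1 and 4 with liver deficient 1 was added after the data were seen. Each member has 1 annotated transcript, so isoforms were not compared.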

Additional observations from a re-analysis of the deposited data

Results flagged for a closer look

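The diet change differed between the tissues for 6 of 53 pathway genes tested (1.89% higher and 9.43% lower). This was by limma's test of the liver change minus the breast change over 20 libraries (log2, all 5 libraries per group). Such a difference was called for 10.1% of all 9138 genes tested (4.68% higher and 5.44% lower), a share near that of the pathway genes. USP15 differed by -0.85 (adjusted p = 0.00292), with 22.4 against 12.2 scaled FPKM in deficient and control breast and nearly the same level on both diets in liver. ZFYVE9 differed by -0.57 (adjusted p = 0.0185), TGFBR2 by 0.66 (adjusted p = 0.0198), WWP1 by -0.64 (adjusted p = 0.0349), CTDSPL by -0.58 (adjusted p = 0.0384) and SMAD1 by -1.43 (adjusted p = 0.0468).

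The call for SMAD1 was lost without any of 17 of the 20 libraries, liver control 4 and liver deficient 1 among them (adjusted p = 0.0836 and 0.0801). For WWP1 11 libraries, and for CTDSPL 8, each ended the call when left out, and without breast control 2 the adjusted p was 0.0733 for WWP1 and 0.0688 for CTDSPL. SMAD1, WWP1 and CTDSPL also lost the call without scaling, with upper-quartile scaling and with quantile normalization, and ZFYVE9 without scaling (adjusted p = 0.292). Without liver control 4 and liver deficient 1 together, TGFBR2 was at adjusted p = 0.0525, while USP15 and ZFYVE9 were still called. With liver control 1 left out as well, ZFYVE9 was at 0.076 and USP15 alone was called. Breast control 1 stood below the other 4 controls for ACVR2A, at 5.95 scaled FPKM against 7.41 and above. Its gap to the nearest was 0.712 of the group's range on the log2(scaled FPKM + 1) scale, just past Dixon's critical value of 0.71 for 5 libraries, and 0.684 on the linear scale, short of it. Chance gives such a gap in about 1 of 20 groups, and no other member past the level filter had one on either scale. Without that library the breast change of ACVR2A was 0.02.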

How the results depend on the processing

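Other settings left the direction of FST in both tissues, of SMAD3 in both and of ACVR2A in liver as given. The breast change of ACVR2A turned to -0.21 without scaling. The genes called in breast (2854) came to between 1835 (without breast control 2) and 3158 with 1 library left out, and the pathway genes among them (17) to between 12 and 23, or 27 without scaling. Liver calls (0) were 2 without a filter, 1 with a filter at 5 and between 0 and 11 with 1 library left out. Calls on the difference of the diet changes (925) were 1871 without scaling, 601 without liver control 4 and liver deficient 1, 340 without liver control 1 as well, and between 490 and 1272 with 1 library left out. Breast controls 2 and 4 and breast deficient 3 and 4 each moved it by over 1.5 times (490, 615, 595 and 567). Of called breast genes 50.5% were higher, and 9.14% without scaling. Of the called differences 46.3% were higher, and 96.2%, 64.7% and 62.7% without scaling, with upper-quartile scaling and with quantile normalization. The causes were not tested.

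With 1 library left out, FST lay between 0.34 and 0.64 in breast muscle. Its liver change then lay between -2.41 and -1.74, and the MSTN change in breast between -0.12 and 0.16. The tissue difference of FST averaged over the diets kept its call under all settings run (limma adjusted p up to 0.0152). These p-values are not separate support, as the same control livers set the diet change for which FST was chosen. None of the settings compared the tissues within a diet, and on the deficient diet the liver mean was the lower one. Same-numbered libraries of the diets correlated, as deviations from the group means, at -0.07 to 0.09 in breast and -0.20 to 0.06 in liver. Across tissues those of a diet correlated at 0.01 to 0.21, all positive but not all over 0.1. Libraries of unlike number were not compared, so whether the numbers mark birds is not known. The main fits did not take them as pairs. In breast a replicate block joined same-numbered control and deficient libraries, which come from different birds, so its changed calls show no effect of a bird. With it 2076 genes were called in breast, 13 of them in the pathway. CHRD, DCN, TGFB3, TGFBI and PPM1A lost their calls, while the SMAD target gene SNAI2 gained one (-0.37, limma adjusted p = 0.0351). For the difference the block took same-numbered breast and liver libraries of a diet as 1 bird. There CTDSPL and WWP1 lost the call and BMPER and LTBP1 gained it (0.69 and 0.66, limma adjusted p = 0.0469 and 0.0396). With the block, same-numbered breast and liver libraries being taken as 1 bird, FST averaged over the diets still differed between tissues (limma adjusted p = 0.00901). That p-value, too, is not separate support. The few reads over the transcript limit what can be said of ACVR2B in both tissues and of MSTN in liver.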

Other observations

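The files give a lower and an upper confidence bound beside each FPKM. For FST the FPKM lay outside its own bounds in 13 of 20 libraries, and for the other 4 members in 0 of 20 each. The bounds were not used here, and the FST levels above are the FPKM as listed, scaled between libraries.

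SMAD7, an inhibitor of the pathway that SMAD proteins themselves induce, was listed at 0 in all breast libraries and at no more than 0.0148 scaled FPKM in any liver library.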
